A study of Mus musculus with 12 samples.

Results

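The genes described here are those of the major histocompatibility complex (MHC) class II pathway in mouse helper T cells: the chain genes H2-Aa, H2-Ab1 and H2-Eb1, the invariant chain gene Cd74, the peptide loading genes H2-DMa, H2-DMb1, H2-Oa and H2-Ob, and Ciita, which encodes their transactivator. Members were the non-control array probes whose transcript accession belonged to 1 of these 9 listed genes in RefSeq. The rule found 13 probes for 8 of the 9 genes, among 41174 probes in all. H2-Eb1 had no matched probe and is not analysed here. All 8 genes passed the filter on low signal and were among the 14719 genes tested.

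The data were 12 one-colour arrays of total RNA from helper T cells of C57BL/6 mice aged 7 weeks. The cells were activated with antibodies to CD3 and CD28 for 65 hours, and kept in IL-2 for a further 48 hours. Electroporation took place on days 1 and 4, and RNA was taken on day 5, which was 24 hours after the last transfection. Cells deficient in Dgcr8, a cofactor of the microRNA-processing enzyme Drosha, were given miR-29b in 1 group and control miRNA in another. For wild-type cells the pair of groups was inhibitors of miR-29 and control inhibitors. There were 3 arrays in each of the 4 groups, mice being numbered 2, 3 and 4, and both arrays of a genotype with the same number came from the same mouse. All cells of every group were thus activated and electroporated in the same way, whereas the labels do not name the driver of the Dgcr8 deletion. Since one genotype had a miRNA and the other an inhibitor as its control, genotype and type of control oligonucleotide cannot be told apart.

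MHC class II molecules are pairs of an alpha and a beta chain that display peptides on the cell surface to CD4 T cells. Dendritic cells, macrophages and B cells express them constitutively, and interferon gamma can induce them in many other cell types through IRF1 and the transactivator CIITA, which is recruited to class II promoters by factors bound at their X and Y boxes. Activated T cells of several species make class II molecules, but mouse T cells are known for making little or none, for want of Ciita expression. The invariant chain, encoded by Cd74, guides class II molecules to the endosome, where H2-DM exchanges the invariant chain remnant for peptides and H2-O restrains H2-DM.

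The added miRNA and the targets of the inhibitors share a seed, the stretch from base 2 to base 8 that pairs with target transcripts. The mature sequences are given 5′ to 3′ from RefSeq (GRCm38.p6) with the seed in capitals, to show that the added miR-29b and its family members differ only outside it.
miR-29a-3p: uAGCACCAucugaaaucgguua
miR-29b-3p: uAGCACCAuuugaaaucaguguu
miR-29c-3p: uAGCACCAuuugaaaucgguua
The 3 members share the seed AGCACCA. In that build miR-29b-3p comes from chr6:31063025-31063047 (minus strand) and from chr1:195037091-195037113 (plus strand), miR-29a-3p from chr6:31062673-31062694 (minus strand) and miR-29c-3p from chr1:195037600-195037621 (plus strand).

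On GRCm38.p6, 7 of the 9 listed genes lie within 224 kb of chromosome 17. In gene order H2-Oa (34092379 to 34095234) is followed by H2-DMa (34119693 to 34139101), H2-DMb1 (34153191 to 34160229), H2-Ob (34238905 to 34245908), H2-Ab1 (34263227 to 34269418), H2-Aa (34282744 to 34287823) and H2-Eb1 (34305867 to 34316674). Ciita lies on chromosome 16 (10480014 to 10531064). The RefSeq promoter table used here, which covers 250 bases before to 50 bases after a start, held 6 of the 9 genes. The stretch from 120 to 21 bases before the start is shown for 4 of them, which hold a motif there and differ in the comparison of genotypes: H2-Aa, H2-DMb1 and H2-Ob were higher in Dgcr8-deficient cells, and H2-Oa did not pass the test. Capitals mark matches to GATTGG, the core of a Y box, and to a form of the X box that reads G, any base, AAC, any pair of bases and ATG.
H2-Aa: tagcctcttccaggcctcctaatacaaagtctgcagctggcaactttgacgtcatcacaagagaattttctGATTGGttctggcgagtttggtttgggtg
H2-DMb1: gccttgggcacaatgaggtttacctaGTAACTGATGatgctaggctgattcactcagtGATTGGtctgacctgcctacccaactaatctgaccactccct
H2-Ob: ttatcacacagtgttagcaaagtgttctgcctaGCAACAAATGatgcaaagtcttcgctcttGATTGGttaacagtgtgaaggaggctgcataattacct
H2-Oa: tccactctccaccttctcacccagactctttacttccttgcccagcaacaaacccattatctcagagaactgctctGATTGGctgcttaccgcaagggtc
These stretches are chr17:34287844-34287943 (minus strand) for H2-Aa, chr17:34153071-34153170 (plus strand) for H2-DMb1, chr17:34238785-34238884 (plus strand) for H2-Ob and chr17:34092259-34092358 (plus strand) for H2-Oa.

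All 4 stretches, chosen for holding it, have the Y box core, whose first base is at -49 from the start of H2-Aa, -62 from that of H2-DMb1, -58 from that of H2-Ob and -44 from that of H2-Oa. Searched on both strands, GATTGG is in 16.1% of the 32851 promoter windows in the table and the X box form in 2.51%. The X box form begins at -94 in H2-DMb1 and -87 in H2-Ob, and its letters are not in the windows of H2-Aa and H2-Oa. Only this spelling of the X box was searched, so its absence does not mean that an X box is missing. H2-DMa, also higher in Dgcr8-deficient cells, has 2 windows in the table, of which one holds neither motif and the other holds GATTGG at -199. Both motifs in this order on a strand, at most 50 bases apart, occur in 14 windows (0.0426%), of which 4 belong to class II genes: H2-DMb1, H2-Ob, H2-Eb1 and H2-Eb2. TGACGT, searched likewise but not marked in capitals, is in 7.51% of the windows. In H2-Aa it begins at -74, and at -72 on the other strand, and it is not in the windows of H2-DMb1, H2-Ob or H2-Oa. The letters of all these motifs were chosen after these sequences had been seen, so the counts are a description.

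The scanner marked 27301 to 31416 probes of an array as well above background and 0 spots as saturated. A level is the log2 signal of a probe minus the 75th percentile of its array. Levels compare arrays for 1 probe, not genes with each other. Differences are log2 changes ± SE from limma with all 12 arrays in 1 fit (n = 3 arrays per group), and a gene passed at an adjusted p under 0.05 after Benjamini-Hochberg adjustment over all genes tested. Dgcr8, the targeted gene, was at -0.75, -1.25 and -0.15 in the Dgcr8-deficient controls and -0.67, -1.13 and -0.35 with miR-29b, and at -0.16, 1.01 and 0.20 in the wild-type controls and -0.06, 0.74 and -0.14 with inhibitors. The control groups overlapped slightly and differed by -1.06 ± 0.39, which did not pass in limma (adjusted p = 0.0755). Whether its probe lies inside the deleted part of the gene is not given in the sources used here. The list named here for CD4 T cells was well above background on all 12 arrays for 12 of 12 genes. It holds pan-T cell genes, Thy1 and Cd5 among them, so it does not set CD4 T cells apart from other T cells. With bulk RNA, fewer cells of a type and less RNA per cell cannot be told apart.

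The controls of both genotypes were compared to ask how class II expression differs between Dgcr8-deficient and wild-type cells. Class II transcripts were far more abundant in the Dgcr8-deficient cells: 7 of 8 measured genes were higher, from 1.62 for H2-DMa to 5.08 for H2-Aa on the log2 scale, and the groups did not overlap for those 7. H2-Oa was the exception. Of all genes tested 22.2% passed in this comparison, 9.25% being higher and 13% lower, and the groups did not overlap upward for 14.9%. The same 7 class II genes passed with mouse, slide or scan day as a block, where 20.5%, 41.8% and 39.7% of all genes did. The median change was 1.87 over the 8 class II genes and -0.08 over all genes.

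Ciita, the transactivator, was at -1.004, -1.76 and -1.15 in the Dgcr8-deficient controls and at -3.59, -3.11 and -3.12 in the wild-type controls. The lowest Dgcr8-deficient array was thus above the highest wild-type array. The difference was 1.97 ± 0.28 (limma, adjusted p = 0.000686), a 3.93-fold difference, and it was 2.59 and 1.96 within the 2 slides that held controls of both genotypes. With another background correction (normexp) it was 1.34.

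Cd74, the invariant chain gene, was at 2.52, 2.32 and 3.67 in the Dgcr8-deficient controls and at -2.09, -1.71 and -1.99 in the wild-type controls. Every Dgcr8-deficient array was above every wild-type array, and mouse 4 was the highest. The difference of 4.77 ± 0.35 (limma, adjusted p = 1.49e-05) is 27.3-fold, with a 95% interval of 4.00 to 5.54 on the log2 scale, and was 4.61 and 5.38 within slides.

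The alpha chain gene H2-Aa was at -0.53, -1.18 and 0.13 in Dgcr8-deficient controls and at -5.80, -5.45 and -5.58 in wild-type controls. This was the widest gap of the class II genes, 5.08 ± 0.35 (limma, adjusted p = 1.11e-05) or 33.9-fold, and 5.27 and 5.57 within slides. Its size depended on the treatment of background, with 3.12 after normexp and 3.75 in the authors' values, both past the threshold. The dimmer H2-Aa probe gave 5.18.

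The beta chain gene H2-Ab1 was at 2.59, 2.26 and 2.90 in Dgcr8-deficient controls and at -0.70, 0.22 and 0.25 in wild-type controls. The groups did not overlap, and its 3 probes gave 2.66, 2.81 and 2.80. The brightest of these differed with an SE of 0.27 (limma, adjusted p = 9.49e-05), and by 3.30 and 2.68 within slides.

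Both H2-DM subunit genes were higher by about the same amount. H2-DMa was at 1.96, 1.97 and 2.58 against 0.31, 0.72 and 0.63 in the wild type, a difference of 1.62 ± 0.24 (limma, adjusted p = 0.000937). H2-DMb1 was at 1.14, 0.96 and 1.20 against -0.68, -0.56 and -0.35, a difference of 1.63 ± 0.23 (limma, adjusted p = 0.000771), and its dimmer probe gave 1.41. The neighbouring beta subunit gene H2-DMb2 was also higher, by 1.78 ± 0.30 (limma, adjusted p = 0.00189), though not past the threshold after normexp (0.87, adjusted p = 0.0539). Whether probes of H2-DMb1 and H2-DMb2, which are closely related, bind each other's transcript was not tested.

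The H2-O subunit genes differed from each other. H2-Ob, the beta subunit, was at -4.65, -4.83 and -3.46 in Dgcr8-deficient controls and at -6.06, -6.36 and -5.79 in the wild type, a difference of 1.76 ± 0.43 (limma, adjusted p = 0.0137). It was well above background on 11 of 12 arrays, and lost its call after normexp (0.25, adjusted p = 0.604), in the authors' values (0.73, adjusted p = 0.109) and without wild-type mouse 3 (1.61, adjusted p = 0.0611).
H2-Oa, the alpha subunit, was at 2.00, 1.82 and 2.74 against 2.14, 2.10 and 2.67. These ranges overlapped, and the difference of -0.11 ± 0.30 (limma, adjusted p = 0.855) had a 95% interval of -0.77 to 0.54. Its sign changed with slide as a block (0.06).

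**Figure D1:**
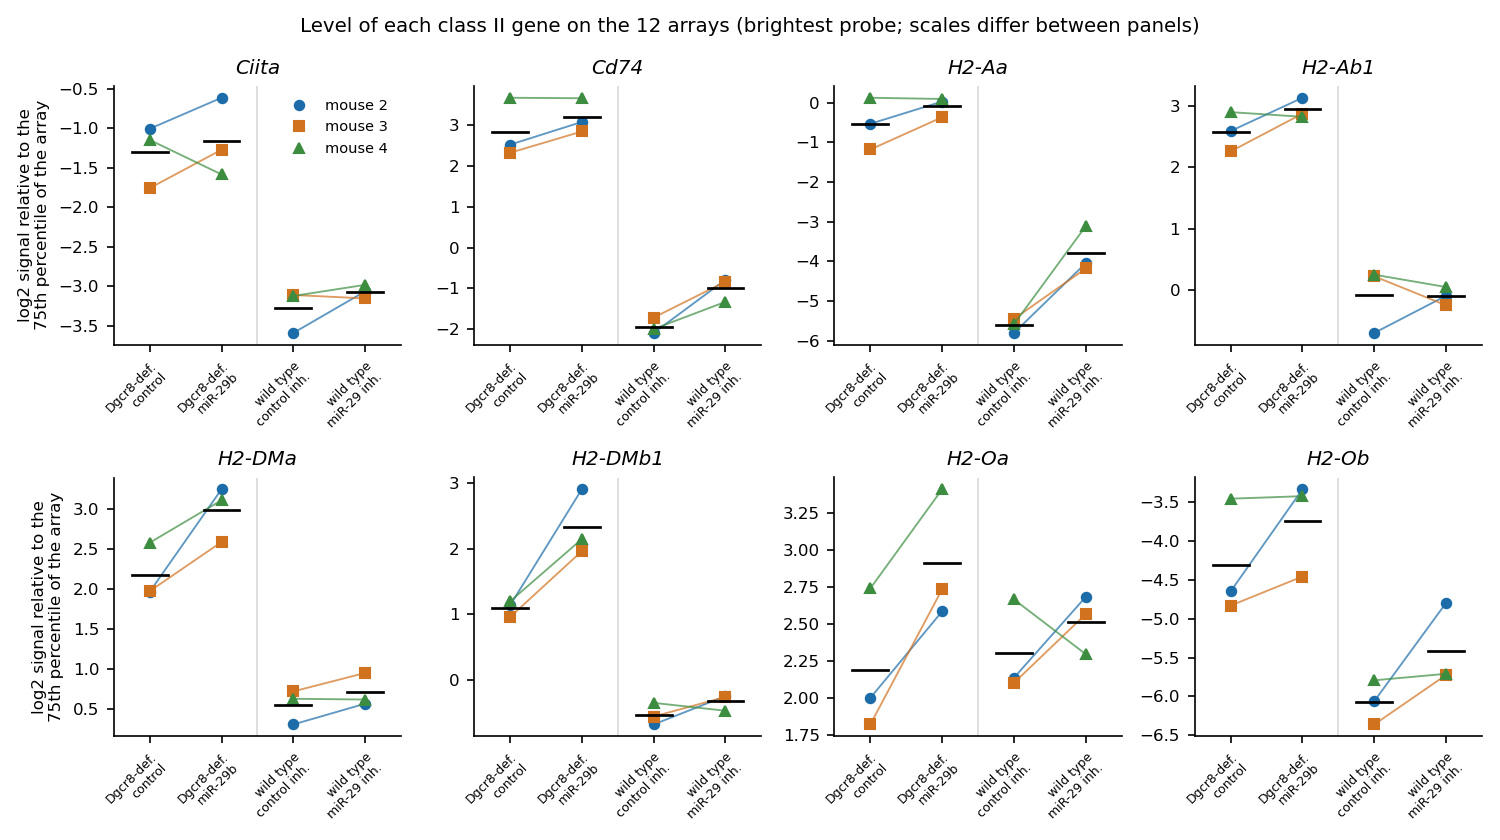
Level of each measured class II gene on the 12 arrays, as log2 signal of its brightest probe after the array's 75th percentile was subtracted. Points are arrays, lines join both arrays of a mouse, and black bars are group means of 3 arrays. For 7 genes every Dgcr8-deficient control lies above every wild-type control, and for H2-Oa the ranges overlap (1.82 to 2.74 against 2.10 to 2.67).

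Markers of B cells, which express class II constitutively, moved with these genes. Of 8 defining B cell markers 7 were higher in the Dgcr8-deficient controls, with a median of 2.32, beside 9.25% higher among all genes. Ms4a1, which encodes CD20, was at 1.08, 0.26 and 1.69 against -4.51, -5.88 and -4.18 in the wild type, a difference of 5.86 ± 0.57 (limma, adjusted p = 8.17e-05). Cd79b, a signalling chain of the B cell receptor, was at 1.31, 1.37 and 2.43 against -2.44, -2.24 and -1.70 (3.83 ± 0.34), and differed by 3.74 and 4.67 within slides. Others were Cd22 (3.74 ± 0.45), the kinase gene Blk (2.18 ± 0.29), Cd79a (1.44 ± 0.21) and Ebf1. Ebf1 was well above background on 2 Dgcr8-deficient controls and on no wild-type control array. With its wild-type levels raised to the lowest level so marked for any probe on the array, it was 3.48-fold higher. This is not a lower bound, since the limit for its own probe is not known. Pax5, which encodes the transcription factor of B cell commitment, was at -5.60, -5.69 and -5.23 against -5.09, -5.67 and -5.76 and differed by 0.00 ± 0.36. After normexp 4 of the 8 passed, Ms4a1, Cd79b and Cd22 among them, and Ebf1 was at -0.06.

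The summed linear signal of the 8 defining markers was 5.59, 4.45 and 9.64 in the Dgcr8-deficient controls of mice 2, 3 and 4 and 0.399, 0.394 and 0.527 in the wild-type controls, where 6 or 7 of the 8 were well above background and none was undetected on all arrays. Bright probes weigh most in a linear sum, so it does not read the 8 markers evenly. Among the Dgcr8-deficient controls mouse 4 was highest and mouse 3 lowest in this sum, and mouse 4 was highest for all class II genes except Ciita. Other B-lineage lists ranked the mice differently, with mouse 3 highest. The further B cell list summed to 10.8, 13.9 and 10.2 in mice 2, 3 and 4, and the plasma cell list to 1.45, 9.22 and 3.43. In the further B cell list 8 of 12 genes tested were higher, among them the adaptor gene Blnk (6.24), and its brightest genes Pou2af1 and Fcmr were at 0.54 and 0.42 and did not pass. Of the plasma cell genes, Jchain, the joining chain gene of secreted antibodies, was higher by 7.91 ± 0.74, whereas Sdc1 was at 1.24 and did not pass. The part of these cells in the class II difference was not tested.

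Markers of other cell types had mixed values, beside 9.25% higher and 13% lower among all genes. Of 7 dendritic cell markers 5 had a probe, and Siglech and Cd209a were well above background on no array. Of the 3 tested 1 passed, Itgax, which was 6.10-fold higher by its measured levels. It was not well above background in the wild-type controls, so this is not a lower bound. After normexp it was at 0.26 and not past the threshold. The brightest 2, Flt3 and Xcr1, were at 0.34 and -0.27 and did not pass. Of 7 monocyte and macrophage markers tested, Tyrobp (2.55) and Fcer1g (1.15, and 0.83 after normexp, not past the threshold) were higher, Adgre1 was lower (-2.72) and 4 did not pass. Of 12 CD4 T cell markers Cd28 was higher (1.25), Lck (-0.67) and Lat (-0.55) were lower and 9 did not pass, Thy1 (-0.45) and Cd5 (0.00) among them. Lck and Lat passed under none of the 4 other scalings, and Cd28 under 2 of them (not with quantile normalization or median scaling). With the mouse as a block Lat did not pass either. The summed CD4 list was at 487 to 497 in Dgcr8-deficient controls and at 560 to 694 in wild-type controls.
NK cell, CD8 and regulatory T cell lists had 1 of 6, 0 of 1 and 1 of 5 genes higher, which were Klrk1 (3.52, and 0.63 after normexp, not past the threshold) and Il2ra (1.29, not past the threshold with median scaling). Klrd1 (-2.56) and Foxp3 (-1.72) were lower, and Klrb1c (0.80), Cd8a (0.26) and Ctla4 (0.26) did not.

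**Figure D2:**
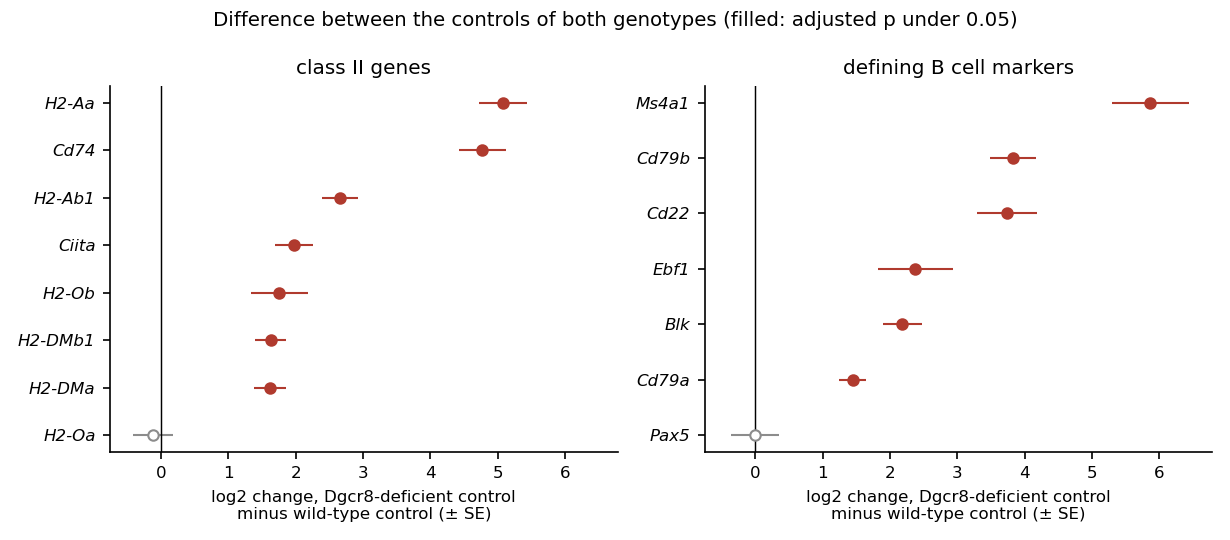
Log2 change between the control arrays of both genotypes for the 8 measured class II genes (left) and 7 of the 8 defining B cell markers (right), with bars of 1 SE from limma (n = 3 arrays per group). Filled points passed at an adjusted p under 0.05. All genes drawn were higher in Dgcr8-deficient cells except H2-Oa (-0.11) and Pax5 (0.00).

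**Figure D3:**
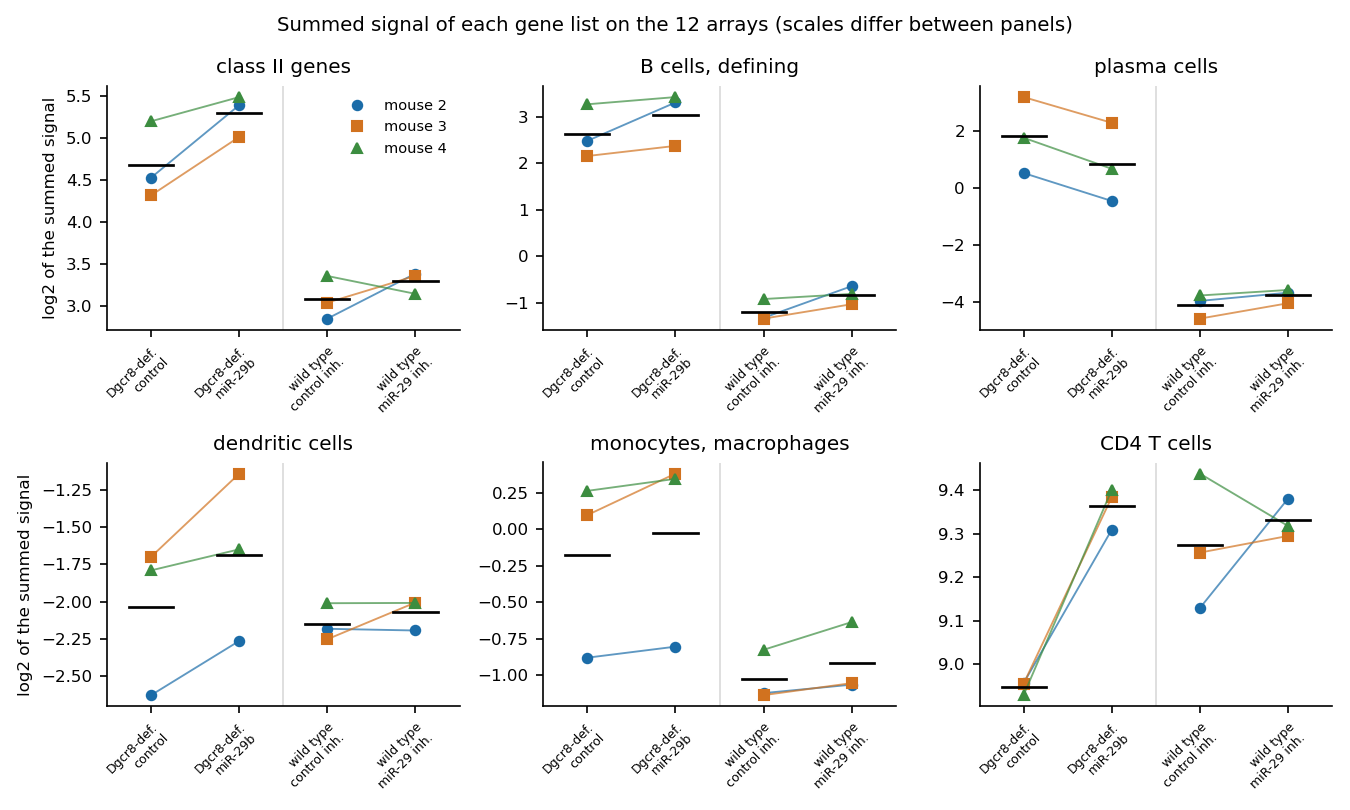
Log2 of the summed signal of the class II genes and of 5 marker lists on each of the 12 arrays, with lines joining both arrays of a mouse and bars for group means. The sums of class II and defining B cell genes are both higher in every Dgcr8-deficient array than in every wild-type array (class II sums from 19.97 in Dgcr8-deficient arrays against at most 10.47 in wild-type ones, on the linear scale), and the CD4 sum is lowest in the Dgcr8-deficient controls.

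Genes on the route from interferon gamma to Ciita were higher in Dgcr8-deficient controls for 4 of 10 measured members, with 0 lower and 6 not past the threshold (median 1.12, against -0.08 for all genes). Among all genes 9.25% were higher and 13% lower. Ifng, the cytokine gene itself, was at 4.59, 3.97 and 2.54 against -2.27, -2.86 and -2.67, a difference of 6.30 ± 0.52 (limma, adjusted p = 2.92e-05). The interferon-induced transcription factor gene Irf1 differed by 1.77 ± 0.21, and the receptor chain gene Ifngr2 by 1.48 ± 0.28.

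Among the factors that hold CIITA at the promoter, of 8 measured members 0 were higher and 3 were lower: Rfxank (-2.05 ± 0.24) and Rfxap (-0.83 ± 0.16), subunits of the X box complex RFX, and Nfyb (-0.99 ± 0.17), a subunit of the Y box complex NF-Y. The remaining RFX gene Rfx5 and 4 others did not pass. The median of the list was -0.15, and 13% of all genes were lower.

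In the list of antigen processing and class II turnover 4 of 13 genes were higher, 2 were lower and 7 did not pass, beside 9.25% higher and 13% lower among all genes. The protease gene Ctsh (2.30 ± 0.59), the chaperone gene Hsp90b1 (0.96 ± 0.15), Cd83 (1.97 ± 0.49), whose product opposes the ubiquitination of class II, and the ubiquitin ligase gene Marchf1 (3.16 ± 0.71), which promotes it, were higher. Marchf1 was well above background on 7 of 12 arrays and did not pass after normexp (0.41) or with mouse blocked (adjusted p = 0.0624). Ctsl (-2.98 ± 0.30) and Ctss (-1.22 ± 0.26), which encode the proteases that trim the invariant chain, were lower. Ifi30, the lysosomal thiol reductase, was at 0.40 and did not pass.
Of 4 costimulation genes measured, Cd274 (3.38 ± 0.41), which encodes PD-L1, and Icosl (2.37 ± 0.37), which encodes the ICOS ligand, were higher, and 2 did not pass. Of the 4 genes for the Cd74 ligand and its partners, the chemokine receptor gene Cxcr4 was higher (1.63 ± 0.34) and 3 did not pass, Mif among them (-0.92, limma adjusted p = 0.0568, and 0.049 in the fit with the mouse as a block, and past the threshold with median scaling).

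miR-29b was compared with control miRNA in Dgcr8-deficient cells to ask what returning 1 microRNA does. H2-DMb1, which encodes the beta subunit of H2-DM, rose by 1.24 ± 0.23 (limma, adjusted p = 0.0239), and was the only 1 of the 8 class II genes to pass. The next highest values, for H2-DMa, H2-Oa and H2-Ob, also belonged to peptide loading genes. This comparison shares the Dgcr8-deficient control arrays with the one between genotypes. In it 2.3% of all genes tested passed and 0.89% were higher. All 8 class II genes had a positive sign, with a median of 0.51 against 0.07 for all genes. Groups did not overlap upward for 2 of the 8, H2-DMa and H2-DMb1, against 8.89% of all genes.

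H2-DMb1 went from 1.14, 0.96 and 1.20 with control miRNA to 2.91, 1.96 and 2.15 with miR-29b in mice 2, 3 and 4. Every mouse rose, by 1.77, 1.01 and 0.95, and the lowest miR-29b array was above the highest control. The dimmer H2-DMb1 probe gave 1.22, which did not pass when all probes were tested singly (adjusted p = 0.127). The call was also lost with median scaling (1.12, adjusted p = 0.151) and when only the 6 arrays compared were fitted (adjusted p = 0.253). It was lost in 7 of 9 fits that left out an array or a mouse: control 2, 3 or 4, miR-29b array 4, or both arrays of mouse 2, 3 or 4, with values from 0.98 to 1.39 and adjusted p up to 0.116.

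H2-DMa, its partner subunit, went from 1.96, 1.97 and 2.58 to 3.25, 2.59 and 3.11. The groups only just failed to overlap, and each mouse rose, by 1.28, 0.61 and 0.53. The change of 0.81 ± 0.24 did not pass (limma, adjusted p = 0.13), but it did with a term for the mouse (adjusted p = 0.0202), slide (0.0167) or scan day (0.0196). These fits called 20.6% of all genes (10.6% higher), 16.8% and 12.3%. H2-Oa changed by 0.58, 0.91 and 0.67 in the 3 mice, a mean of 0.72 ± 0.30 (limma, adjusted p = 0.293, and 0.0441 with the mouse as a block). H2-DMb2 was at 1.03 ± 0.30 (adjusted p = 0.12, blocked 0.0115).

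The chain genes, Cd74, Ciita and H2-Ob did not pass with or without the block. Cd74 changed by 0.56, 0.52 and -0.01 in mice 2, 3 and 4 and H2-Aa by 0.56, 0.81 and -0.03. H2-Ab1 changed by 0.54, 0.62 and -0.08. For these 3 genes mice 2 and 3 moved up and mouse 4 stayed near 0. H2-Ob changed by 1.31, 0.37 and 0.03, and Ciita by 0.39, 0.49 and -0.44, a mean of 0.15 ± 0.28 with a 95% interval of -0.47 to 0.76.

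Among B cell markers, of the 8 defining markers 0 passed (median 0.34, from -0.21 for Pax5 to 0.43 for Cd79b). Their summed signal changed by 0.83, 0.22 and 0.16 on the log2 scale in mice 2, 3 and 4. That of the further B cell list changed by 0.28, -0.25 and -0.02. The summed CD4 T cell list changed by 0.35, 0.43 and 0.47. In the fit with a term for the mouse 4 of its 12 genes were higher (Cd247, Cd3d, Lck and Thy1), where 10.6% of all genes were. The plasma cell sum was lower in every mouse, by -0.98, -0.90 and -1.09, with Jchain at -1.04 (limma, adjusted p = 0.628, and 0.0223 with mouse blocked) and Sdc1 at 0.03. The part of any of these in the change of H2-DMb1 was not tested.

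Around the class II genes 3 listed genes fell with miR-29b. Ifng went from 4.59, 3.97 and 2.54 to 1.105, 1.28 and -0.21, a fall of -2.97 ± 0.52 (limma, adjusted p = 0.0177). Ifi30, which unfolds antigens for class II loading, went from 2.73, 2.84 and 3.13 to 0.29, 0.49 and 0.21. No miR-29b array reached the lowest control, and the change was -2.57 ± 0.21 (limma, adjusted p = 0.00151). Nfyc, an NF-Y subunit gene, fell by 0.79 on the log2 scale (SE 0.16, limma, adjusted p = 0.0364), and not past the threshold after normexp (-0.70, adjusted p = 0.056) or with median scaling (-0.92).
The other genes of the interferon gamma route did not pass, with Irf1 at -0.25. In the route list 1 of 10 fell, in the promoter factor list 1 of 8 and in the processing list 1 of 13, and none rose, where 1.41% of all genes fell. With the mouse as a block Rfxap (-0.63, adjusted p = 0.00516), Cd274 (-0.66, adjusted p = 0.0178) and Marchf8 (-0.65, adjusted p = 0.0216) were also lower, and Rfxank (0.48, adjusted p = 0.0173) and Ctss (0.48, adjusted p = 0.0196) higher. That limma fit called 20.6% of all genes, 10.6% being higher.

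**Figure D4:**
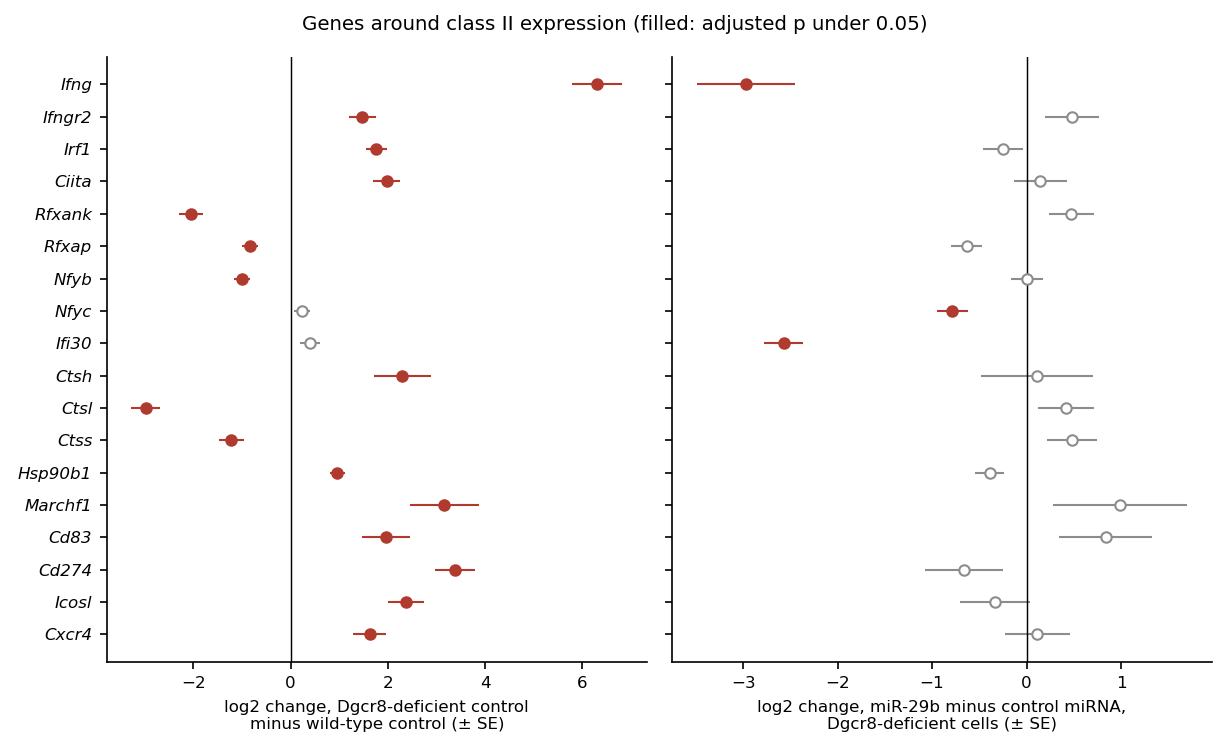
Log2 changes with bars of 1 SE for listed pathway genes past the threshold in any comparison, with Ciita, between control arrays of both genotypes (left) and with miR-29b in Dgcr8-deficient cells (right, limma, n = 3 arrays per group). Not every such gene is drawn, and H2-DMb2 is among those left out. Filled points passed at an adjusted p under 0.05. The comparisons share the Dgcr8-deficient control arrays, and Ifng is at 6.30 on the left and -2.97 on the right.

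miR-29 inhibitors were compared with control inhibitors in wild-type cells to ask what blocking the family does; the wild-type control arrays also served in the comparison of genotypes. No class II gene passed: limma called 0% of the 14719 genes, and 63 had an unadjusted p under 0.05. Groups did not overlap upward for 3 of the 8, H2-Aa, Cd74 and H2-Ob, against 1.77% of all genes.
H2-Aa went from -5.80, -5.45 and -5.58 to -4.04, -4.18 and -3.11 in mice 2, 3 and 4, which left it far below its lowest Dgcr8-deficient level of -1.18. Its change of 1.83 ± 0.35 was positive in 3 of 3 mice (1.76, 1.27 and 2.47) and did not pass (limma, adjusted p = 1; blocked 0.508). The dimmer probe gave 1.31, and the brighter one 0.58 after normexp. Cd74 went from -2.09, -1.71 and -1.99 to -0.79, -0.83 and -1.33, a change of 0.95 ± 0.35 (0.74 to 1.12 over the alternatives).

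H2-Ob changed by 1.26, 0.64 and 0.08 in mice 2, 3 and 4, a mean of 0.66 ± 0.43, and was at -0.14 after normexp. The remaining 5 class II genes had means from -0.02 for H2-Ab1 to 0.21 for H2-Oa. H2-Ab1 changed by 0.61, -0.47 and -0.20, so its mice did not move together, and the 95% interval of its mean was -0.62 to 0.57. Beside them, the defining B cell markers had a median of 0.27, with Ms4a1 at 1.45 and Pax5 at -0.58, none past the threshold. Groups did not overlap upward for 2 of these 8, Ms4a1 and Cd79a, against 1.77% of all genes. Of the 12 genes tested of the further B cell list they did not for Spib, Btk and Fcrla. Fcrla was well above background on no wild-type array, so its order rests on levels near background. The sum of the defining markers changed by 0.68, 0.31 and 0.11 on the log2 scale in mice 2, 3 and 4. That of the further B cell list changed by 0.15, -0.26 and -0.17, so the lists did not move together. The part of B cell markers in these values was not tested.

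**Figure D5:**
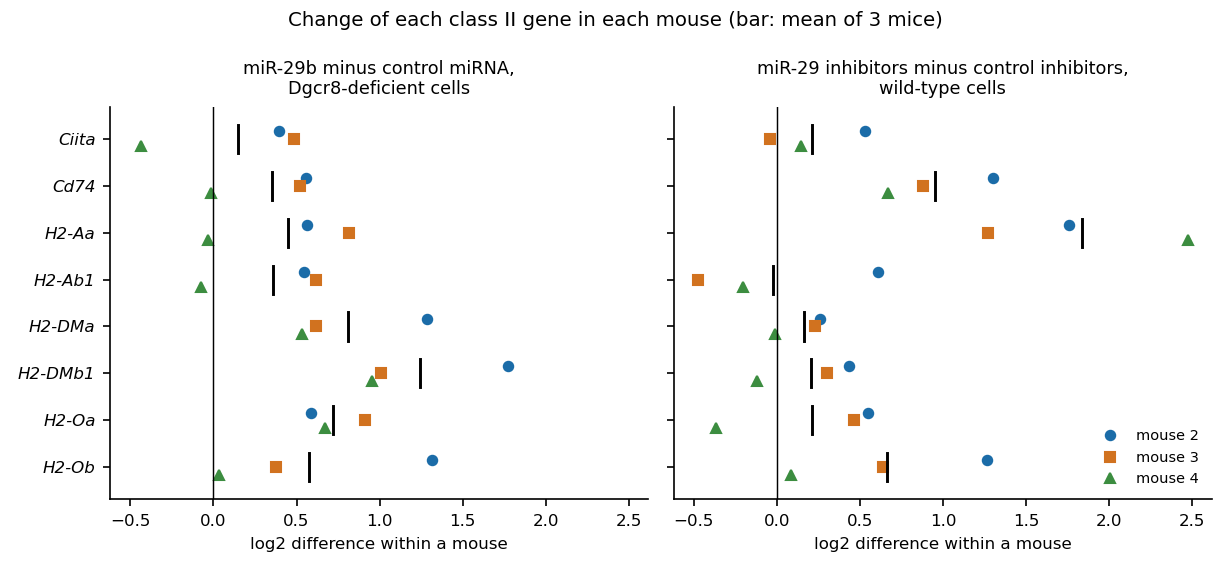
Log2 difference between both arrays of a mouse for each measured class II gene, for miR-29b in Dgcr8-deficient cells (left) and miR-29 inhibitors in wild-type cells (right). Points are mice, with colour and shape by mouse number within a genotype, and bars are means of 3 mice. H2-DMb1 rises by 0.95 to 1.77 on the left, and H2-Aa is at 1.27 to 2.47 on the right.

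The effects of miR-29b and of the inhibitors were also set against each other in the same fit. For the class II genes 0 of 8 differences passed, where 0.17% of all genes did, nor did any with mouse, slide or scan day as a block (5.7%, 4.1% and 3% of all genes). The largest were H2-Aa at -1.39 ± 0.50 (limma, adjusted p = 0.472, blocked 0.0796) and H2-DMb1 at 1.04 ± 0.33 (adjusted p = 0.348, blocked 0.0809). Over the listed pathway genes only Ifi30 passed, with -3.21 ± 0.29 (limma, adjusted p = 0.00376).

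Ordered by group mean, Cd74 was highest with miR-29b (3.19 ± 0.42, SD, n = 3), followed by the Dgcr8-deficient controls (2.84 ± 0.73), the wild-type cells with inhibitors (-0.98 ± 0.30) and the wild-type controls (-1.93 ± 0.20). The ranges of the first 2 groups overlapped, and those of the last 2 did not. The same order of groups held for H2-Aa, H2-DMa, H2-DMb1, H2-Ob and Ciita. For H2-Ab1 the wild-type groups were at -0.10 with inhibitors and -0.08 without, and for H2-Oa the Dgcr8-deficient controls were lowest (2.19).

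Finally, genes were ranked by likeness to the mean pattern of Cd74, H2-Aa and H2-Ab1 over the 12 arrays, among 14194 genes; H2-Eb1, without a probe, could not enter the pattern. The arrays fall into 2 genotypes, and any gene that differs between them ranks high, so these correlations are a description of the arrays. Among the 10 most alike were Pkib (Pearson r = 0.994), Cd79b (0.987), Slfn4 (0.986), H2bc4 (0.986), Fcrla (0.983), Stau1 (0.982), Gna11 (0.982), Dennd6a (0.982) and Bcar3 (0.982). Of these, Cd79b and Fcrla stand on the B cell lists. Slfn4 and Fcrla were well above background on 6 of 12 arrays and on no wild-type array. Pkib was so on 8 arrays and on no wild-type control. The r of these genes thus rests partly on levels near background. Among the class II genes outside the pattern, r was 0.965 for Ciita, 0.960 for H2-DMa, 0.927 for H2-DMb1, 0.907 for H2-Ob and 0.302 for H2-Oa.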

How the data were processed

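Gene expression was measured on 12 Agilent 4x44K mouse arrays. The authors deposited scanner files of spot intensity (background-subtracted processed signal, arbitrary units), made with Feature Extraction 10.5.1.1 per the file headers, and a table of log2 values, used here as an alternative; the submitters' processing notes name limma.

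Processed signals were converted to log2, the 75th percentile of each array was subtracted, outlier-marked spots were left out and spots of a probe averaged. Probes well above background on at least 3 of 12 arrays were kept, and the brightest probe stood for each gene (14719 genes). All 4 groups entered 1 linear model in limma 3.58.1 (R 4.3.3). This main fit took the 12 arrays as independent, although both arrays of a mouse are related (consensus correlation 0.754), so its degrees of freedom count arrays rather than mice. Its P-values rest on how arrays of the same group, each from a different mouse, vary. For miR-29b and inhibitors against their controls that is not the variation of the change within a mouse. With the mouse as a block, calls with miR-29b went from 338 to 3039 genes, and those with inhibitors stayed at 0. The number of arrays limits precision. Normexp (offset 50) used the median foreground signal, since a mean signal column was not used here. The mouse entered as a block in an alternative, because the series' design says that cells of each mouse were split between treatments; residuals of both arrays of a mouse correlated at 0.651, 0.612 and 0.753 (Dgcr8-deficient) and 0.468, 0.722 and 0.429 (wild type). Both arrays of a mouse also shared a slide and scan day, over 4 slides and 2 scan days.

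Named genes were all members, pathway list genes past the threshold in any of 4 comparisons (otherwise up to 3 with the smallest p), the 8 defining B cell markers, the 2 brightest genes of other marker lists, and the 10 genes of most similar pattern; Blnk, Itgax, Adgre1, Lck, Lat, Cd28, Foxp3, Klrk1, Mif, Rfx5, Marchf8, Cd247, Cd3d, Spib and Btk were chosen after their values were seen. Members and lists were chosen with earlier results of these data known. The fits were tested on simulated data. Some genes under these rules are not reported here.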

Additional observations from a re-analysis of the deposited data

Results flagged for a closer look

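Beside the class II genes, 3 listed genes stood out when the effects of miR-29b and of the inhibitors were set against each other. For Ifi30 the miR-29b effect minus the inhibitor effect was -3.21 on the log2 scale and passed the test of that difference (limma, adjusted p = 0.00376). For Ifng it was -3.45, with every Dgcr8-deficient mouse lower and every wild-type mouse higher, and this did not pass (limma, adjusted p = 0.111, and 0.00732 with the mouse as a block). For Rfxap it was -0.69 with the same pattern of mice, and did not pass (limma, adjusted p = 0.415, and 0.0244 with the mouse as a block). The fit with the mouse as a block called 5.7% of all genes for this difference.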

How the results depend on the processing

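The count of class II genes higher in Dgcr8-deficient controls, 7, was 6 or 7 under the alternatives run, leaving out each array or mouse among them (6 to 7); H2-Ob was the gene that fell out, and it was not tested when detection on all arrays was required. With the mouse as a block the count was also 7. For miR-29b the count of 1 became 3 with the mouse as a replicate block, 2 with slide and 2 with scan day as blocks, and 0 with median scaling and with the compared groups alone; it was 0 to 1 without an array or mouse. The inhibitor count and that of the difference between effects were 0 throughout.

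Signs turned only for values that did not pass. After normexp the inhibitor effect was -0.015 for Ciita and -0.14 for H2-Ob, and the difference between effects 0.15 and 0.52. In the authors' values H2-Ab1 was at 0.012 with inhibitors, and the differences for Ciita and H2-Ob were 0.0036 and 0.074. With slide as a block the genotype difference of H2-Oa was 0.058. Leaving out arrays or mice, Ciita ran from -0.12 to 0.44 with miR-29b, H2-Ab1 from -0.34 to 0.20 with inhibitors, H2-Oa from -0.39 to 0.069 between genotypes, and the difference between effects from -0.33 to 0.23 for Ciita and -0.46 to 0.34 for H2-Ob. The cause was not tested.

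The median change of all genes between genotypes was -0.08, and -0.25 after normexp; with miR-29b it was 0.07, and -0.06 with median scaling. Calls with miR-29b were 131 higher and 207 lower, 60 and 175 after normexp, 43 and 166 with median scaling, and 3039 in all with the mouse as a block. Calls of the difference between effects were 2 higher and 23 lower, and 22 and 70 in the authors' values.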
